A study of Homo sapiens with 16 samples.

Results

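These are 1419 chromosome regions where TOP2B peaks were listed in osimertinib-treated METTL7A-knockout cells, untreated knockout cells and untreated wild-type cells but not in osimertinib-treated wild-type cells. They were found by pooling the 4 deposited TOP2B peak lists on chromosomes 1 to 22 and merging intervals that overlapped by at least 1 bp, which gave 28771 union regions. A region was kept when intervals of 3 lists lay in it and none of treated wild type did. The regions, called members here, were thus chosen by the presence and absence of listed intervals, and absence from treated wild type is a description of them and not a result.

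The cells were PC9, a human lung adenocarcinoma line driven by an activating EGFR mutation. EGFR is a growth factor receptor, and osimertinib inhibits its mutant kinase. The groups used were treated wild type, treated METTL7A knockout, untreated METTL7A knockout and untreated wild type, each with 2 TOP2B libraries that the authors had combined into 1 list. Treatment lasted 6 to 8 weeks, beginning at 100 nM osimertinib with rising doses, and the sources used here do not say whether the knockout is 1 clone. All cells shared the PC9 background, and the genotype labels were not checked, since the METTL7A locus could not be placed on the build of the lists.

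TOP2B is the beta form of DNA topoisomerase II. It passes one DNA duplex through a break in another, relieves the twist that transcription builds up, and is known to sit at promoters and at loop anchors bound by CTCF and cohesin. METTL7A is a methyltransferase-like protein of the endoplasmic reticulum and lipid droplets. The libraries were made by CUT&RUN, in which an antibody tethers a nuclease that cuts out the DNA around its target. An interval of a list is a stretch where called peaks were intersected, and the lists held 9655 intervals in treated wild type, 7493 in treated knockout, 12493 in untreated knockout and 15281 in untreated wild type. Read depth is unknown from the lists. Each condition had a single list, so conditions could not be tested against replicate error. The 95% confidence intervals (exact Clopper-Pearson) given for shares cover counting error only, and neighbouring regions are not independent.

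Of the 2086 regions with intervals of the other 3 lists, 1419 lacked treated wild type, which is 68% (95% confidence interval 66 to 70), and 667 held all 4 lists. The rule used this contrast. Among all regions with an untreated wild-type interval, 84.6% lacked a treated wild-type interval, and the corresponding percentages were 82.1% for regions with a treated knockout interval and 85.6% for those with an untreated knockout interval. Of the 4921 regions with intervals of both untreated lists, 76.9% lacked treated wild type and 57.6% lacked treated knockout. Nothing is read from the members' number against these percentages. For the other lists the same count was smaller. Treated knockout alone was missing from 472 of 1139 regions (41.4%, 38.6 to 44.4), untreated knockout alone from 166 of 833 (19.9%, 17.3 to 22.8) and untreated wild type alone from 49 of 716 (6.84%, 5.11 to 8.95). The lists differed in length, and the part of length in these counts was not tested. The 472 became 176 with lists cut to equal length and 236 with maxima at or above the list median, while the members numbered 1045 and 998 under the same settings.

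The members held 28.3% of the treated knockout intervals (2025 of 7168 on these chromosomes), 16.6% of the untreated knockout intervals (2018 of 12141) and 10.3% of the untreated wild-type intervals (1548 of 15018). The regions of all 4 lists held 19.4%, 11% and 5.31% of the same lists, and 11% of treated wild type. By the rule, members and regions of all 4 lists each hold treated knockout, untreated knockout and untreated wild-type intervals. The order of the shares therefore partly follows the lengths of the lists, and no enrichment is read from it.

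Members were concentrated on a few chromosomes. Chromosome 20 held 396 of them (27.9%), chromosome 7 held 251 (17.7%), chromosome 1 held 196 (13.8%), chromosome 19 held 166 (11.7%) and chromosome 14 held 129 (9.09%). These 5 chromosomes, picked by number of members, held 80.2% of the members, 58.8% of the regions of all 4 lists and 40.2% of all union regions. Only the 2086 regions with intervals of the other 3 lists could be members, and these were themselves concentrated there. Chromosome 20 held 555 of them, chromosome 7 held 330, chromosome 19 held 235, chromosome 1 held 223 and chromosome 14 held 187. On the other 17 chromosomes there were 281 members, with 98 on chromosome 2 and 64 on chromosome 16. No member lay on 5 chromosomes, of which chromosome 17 was the only 1 with more than 1000 union regions (1429), and there were 7 on chromosome 5 among 2330 union regions. Only 5 regions of chromosome 17 and 24 of chromosome 5 had intervals of the other 3 lists and so could be members. Those chromosomes held 11% (chromosome 17) and 16.8% (chromosome 5) of the treated wild-type intervals, against 0.865% and 2.4% of the treated knockout intervals. The shares were 0.832% and 3.46% for untreated knockout, and 3.04% and 4.52% for untreated wild type.

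Neighbouring regions are not independent, so the confidence intervals by chromosome are too narrow and serve as description only. The share of regions without treated wild type, a contrast that the rule used, varied between chromosomes. Among the 12 chromosomes with at least 20 regions of the other 3 lists, it was highest on chromosome 1 with 196 of 223 (87.9%, 82.9 to 91.9), followed by chromosome 16 (76.2%, 65.7 to 84.8) and chromosome 7 (76.1%, 71.1 to 80.6), and the values of chromosomes 16 and 7 do not differ beyond their confidence intervals. It was lowest on chromosome 12 with 12 of 57 (21.1%, 11.4 to 33.9), then chromosome 5 (29.2%, 12.6 to 51.1), chromosome 10 (42.6%, 29.2 to 56.8) and chromosome 2 (46.2%, 39.4 to 53.2). Chromosome 20, with most members, stood near the whole at 71.4% (67.4 to 75.1), and chromosomes 19 (70.6%) and 14 (69%) did as well.

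**Figure D1:**
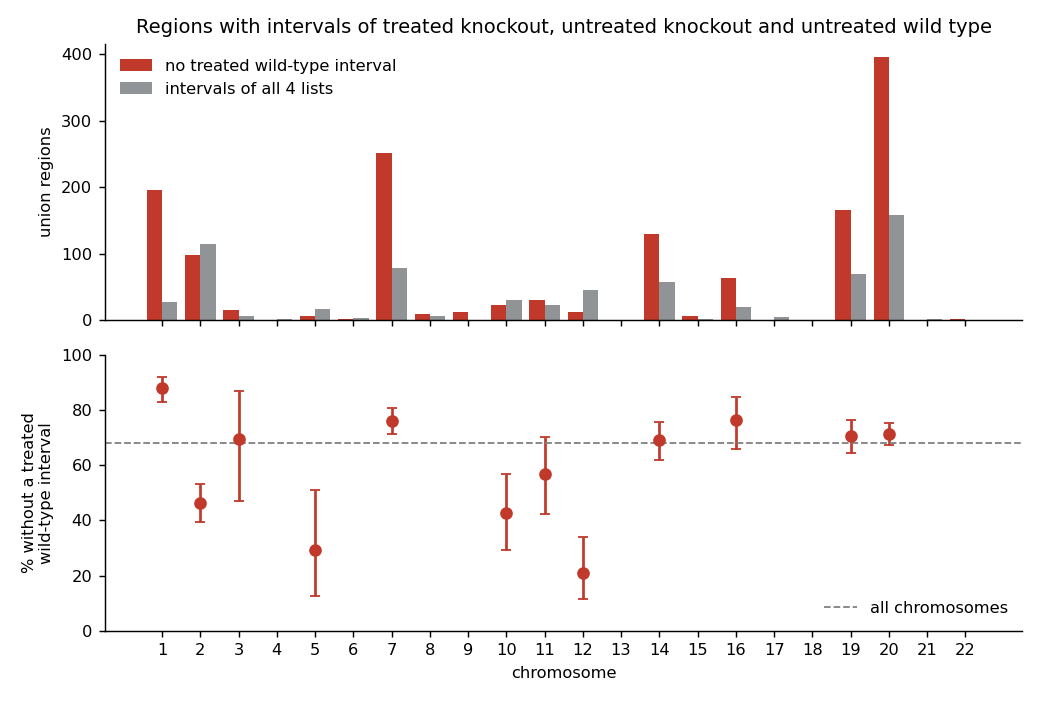
Upper panel: number of union regions per chromosome with intervals of treated knockout, untreated knockout and untreated wild type, split into those without a treated wild-type interval and those with intervals of all 4 lists. Lower panel: percentage without a treated wild-type interval, with exact 95% confidence intervals, for chromosomes with at least 20 such regions; the dashed line is the value of 68% over all chromosomes. Chromosome 1 lies above the line at 87.9% and chromosome 12 lowest at 21.1%.

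Within chromosomes the members formed blocks. Joining members less than 2 Mb apart gave 87 blocks, of which 34 held 1 member and the 8 largest held 1097 members (77.3%). Positions are on GRCh37 and counted from 1. The largest block ran over 20.7 Mb of chromosome 20 (chr20:42141451-62879550) and held 367 members and 147 regions of all 4 lists. It contained 317 treated wild-type intervals, 1241 of treated knockout, 1959 of untreated knockout and 1912 of untreated wild type, which are 3.29%, 17.3%, 16.1% and 12.7% of those lists in the same order. Blocks are built from members, so a low treated wild-type share in them is drawn from values that the rule used. This stretch is the distal long arm of chromosome 20.

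The second block, on chromosome 7 (chr7:44114601-57712400), held 181 members and 72 regions of all 4 lists, with 1.44% of the treated wild-type list, 10.7% of treated knockout, 6.56% of untreated knockout and 4.55% of untreated wild type. Chromosome 7 carries EGFR, whose own position was not examined. A separate block of the same chromosome (chr7:64327101-68918900) held 48 members, no region of all 4 lists and 0 treated wild-type intervals, against 123 of treated knockout, 216 of untreated knockout and 206 of untreated wild type.

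On the short arm of chromosome 1 (chr1:113614201-120019250) the block of 174 members had only 5 regions of all 4 lists, so 97.2% of its regions lacked treated wild type (93.6 to 99.1). The treated wild-type list had 7 intervals there, against 512 in treated knockout, 526 in untreated knockout and 451 in untreated wild type. Treated knockout held nearly as many intervals as untreated knockout although its whole list was shorter, and its share was 7.14% against 4.33%. Every member holds a treated knockout interval by the rule, so a raised share of this short list is also drawn from values that the rule used. It was not particular to this block, since the second block had 10.7% against 6.56%.

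The remaining large blocks differed among themselves. The end of chromosome 19 (chr19:51072751-59064700) held 162 members and 69 regions of all 4 lists, with 183 treated wild-type intervals and 579 of treated knockout. Chromosome 14 held blocks of 75 (chr14:74679801-78816200) and 54 members (chr14:101867151-104208050). In the first, 62.5% of the regions lacked treated wild type (53.2 to 71.2) and in the second 81.8% (70.4 to 90.2). The eighth block, at the end of chromosome 2 (chr2:237126251-242623000), was unlike the others. There, 36 members stood beside 64 regions of all 4 lists, and the treated wild-type list held 321 intervals, 3.33% of the list, close to the 3.66%, 3.01% and 3.16% of treated knockout, untreated knockout and untreated wild type.

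**Figure D2:**
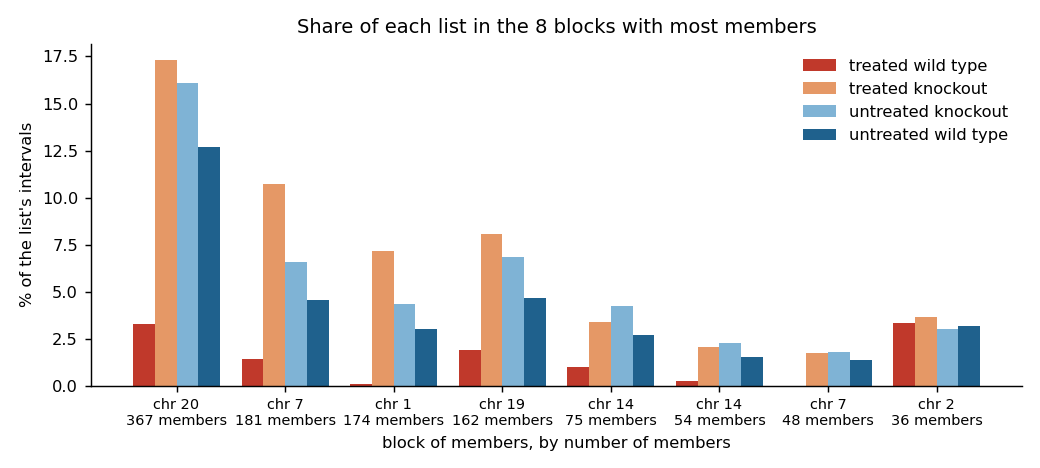
Percentage of each list's intervals on chromosomes 1 to 22 that lay in the 8 blocks with most members, ordered by number of members; bars run from treated wild type to untreated wild type within a block. In the first 7 blocks the treated wild-type bar is the lowest, while in the chromosome 2 block it stands at 3.33% beside 3.66% for treated knockout.

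At the scale of 1 Mb, members lay in 216 windows, and 26 windows held 50% of them. The window with most was 55 to 56 Mb of chromosome 19 with 44 members, where the lists held 37 intervals in treated wild type, 135 in treated knockout, 157 in untreated knockout and 110 in untreated wild type. Next came 116 to 117 Mb of chromosome 1 with 41 members and 0, 108, 104 and 87 intervals in the same order. At 54 to 55 Mb of chromosome 7 there were 36 members and 26, 110, 146 and 109 intervals. The others among the 10 windows with most members lay on chromosome 20 (60 to 61 Mb with 35 members, 56 to 57 Mb with 29 and 55 to 56 Mb with 28), chromosome 1 (114 to 115 Mb with 31, 117 to 118 Mb with 30 and 115 to 116 Mb with 28) and chromosome 7 (68 to 69 Mb with 31). In all 10 windows treated wild type had fewer intervals than each other list, and in 3 of them it had 0. The windows were chosen for their members, so these low numbers are drawn from values that the rule used.

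Most members did not lie in stretches empty of treated wild-type intervals. The windows of 1240 members (87.4%) held at least 1 such interval, and 179 members (12.6%, 10.9 to 14.5) lay in the 38 member windows with none. The second share was 25.3% when intervals with a maximum below their list's median were left out. Neither share is given for other regions, so neither is read as a trait of the members. By the number of treated wild-type intervals in the window, the share of regions that lacked them was 88.3% with 1 to 4 intervals (84.1 to 91.7), 79.6% with 5 to 9, 68.9% with 10 to 19 and 51.6% with 20 or more (48.3 to 54.8). Each region of all 4 lists adds to that number, so the rule favours this order without fixing it. Regions of all 4 lists held 11% of the treated wild-type intervals. Of the members, 475 members lay in windows with at least 20 treated wild-type intervals.

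The median distance from a member to the nearest treated wild-type interval was 28.4 kb (95% confidence interval of the median 24.7 to 33, interquartile range 8.97 to 123). It was 62.4 kb without intervals below the list median, 47.6 kb with split called peaks joined and 43.7 kb when members had to be 5 kb away. A treated wild-type interval lay within 5 kb of 231 members (16.3%, 14.4 to 18.3) and within 100 kb of 1032 (72.7%), and 94 members (6.62%) were over 1 Mb away. The 472 regions missing only in treated knockout lay nearer to the list they lacked, with a median of 10.4 kb to treated knockout (9.1 to 11.8), which is a shorter list. The medians by chromosome were 344 kb for chromosome 1, 69 kb for chromosome 16 and 49 kb for chromosome 7, against 19.1 to 20 kb for chromosomes 14, 19 and 20 and 8.2 kb for chromosome 2.

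**Figure D3:**
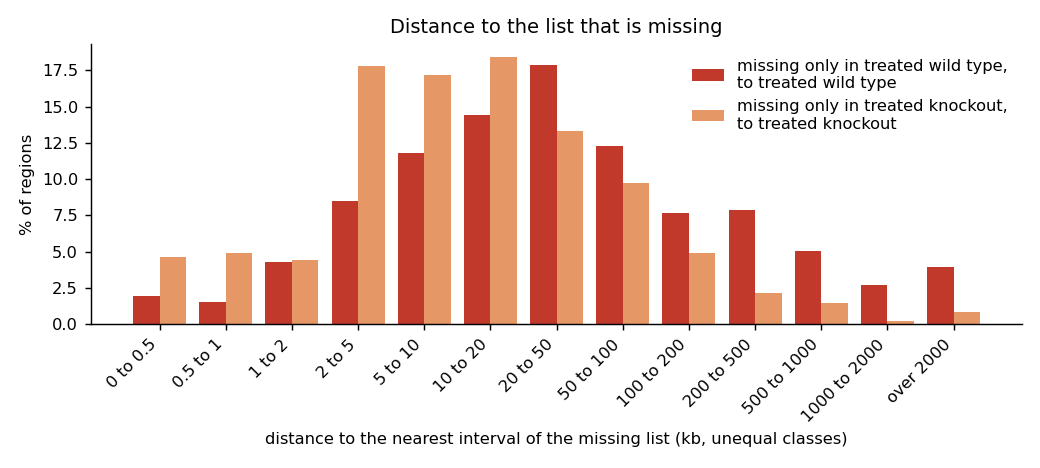
Percentage of regions by distance to the nearest interval of the list that they lack, in classes of unequal width, for regions missing only in treated wild type (n = 1419) and regions missing only in treated knockout (n = 472). The first set reaches farther, with 6.62% over 1 Mb away against 1.06% in the second. Of these 94 members of the first set, 52 lay on chromosome 7 and 29 on chromosome 1.

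At the edge of the rule, the nearest members adjoined or nearly adjoined a treated wild-type interval: chr1:144938101-144943000 at 0 bp, and chr2:237968001-237971150 and chr5:179221251-179224250 at 50 bp. Just outside it, treated wild-type intervals overlapped the other lists by 50 bp at chr11:69704351-69709150 and by 100 bp at chr7:2295601-2303300 and chr7:56017651-56022750. Such cases were few, since 50 members lay within 1 kb of treated wild type and 10 of the 667 regions of all 4 lists had an overlap of up to 200 bp. The farthest members were chr8:2195551-2201400, with 78.6 Mb to the nearest treated wild-type interval of that chromosome, chr9:66857851-66861800 (11956 kb) and chr9:68414951-68422900 (10395 kb).

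The surroundings of members were counted in the same way, as a description. Flanks hold other members, where treated wild type is absent by the rule, and other regions of all 4 lists, where it is present. Between 20 and 100 kb from the middle of the region, 68.6% of members had a treated wild-type interval (66.1 to 71), and the mean number was 3.36. Around regions of all 4 lists it was 90.6% (88.1 to 92.7) with a mean of 7.31. In the other lists the members and the regions of all 4 lists were closer to each other. Treated knockout had an interval in the flanks of 95.3% of members and 93.7% of regions of all 4 lists, with means of 12.3 and 13.3. Untreated knockout had 97.7% and 96.3%, with means of 16 and 16.3, and untreated wild type had 98.5% and 97.3%, with means of 14.2 and 13.6. Flanks of neighbouring regions overlap, so these confidence intervals are too narrow. A count chosen after seeing the data left out every base and interval of members and of regions of all 4 lists. The remaining flanks held 10.6 treated wild-type intervals per Mb around members and 25.4 around regions of all 4 lists. The densities were 28.9 and 26.5 per Mb for treated knockout, 62.3 and 56.9 for untreated knockout, and 70.5 and 65.6 for untreated wild type. In this count too, treated wild type was sparser around members, and the other lists were not. The sets compared were still split by presence of treated wild type, and the part of clustering of that list was not tested. An interval in overlapping flanks was counted once for each region.

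**Figure D4:**
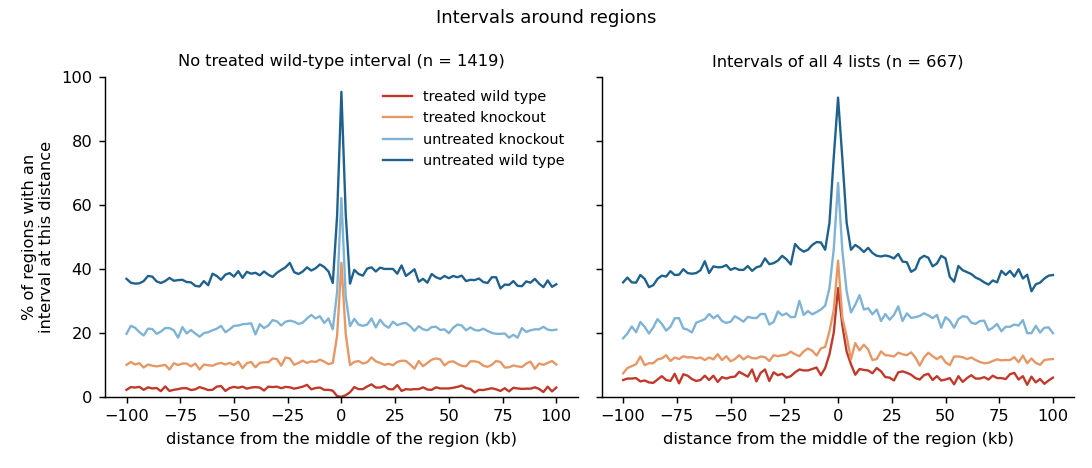
Percentage of regions with an interval of each list at each distance from the middle of the region (kb), for members (left, n = 1419) and regions of all 4 lists (right, n = 667). At 0 kb the members have treated wild type at 0% by the rule and untreated wild type at 95.4%; at 20 kb treated wild type stands at 3.38% around members and 7.95% around regions of all 4 lists.

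Members also followed each other. The median gap between neighbouring members of a chromosome was 28.7 kb, and 76.5% of 1402 neighbouring pairs were within 100 kb. Counting along each chromosome from 1 treated wild-type interval to the next, members fell into 544 series of neighbouring union regions, of which 309 held a single member and 62 held at least 5 (645 members, 45.5%). The series with most members, chr1:114930651-117417000, had 291 union regions in a row without treated wild type over 2.49 Mb, of which 83 were members. It held 229 treated knockout, 231 untreated knockout and 194 untreated wild-type intervals. Beside it lay chr1:113546551-114886350, with 42 members among 152 regions. Of the 5 series with most members, the longest by distance was chr7:64323001-85380650, 21.1 Mb with 48 members among 342 regions. Its members all lay within chr7:64327101-68918900, so the rest of that stretch held none. The other series named by this rule were chr7:47704601-50536550 and chr7:50752251-53357000, each with 16 members.

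The median member was 5000 bp wide (interquartile range 3500 to 7275, range 1200 to 38100), and together the members covered 8.56 Mb. Regions of all 4 lists had a median of 7750 bp (5100 to 11550), and 7700 bp when their treated wild-type intervals were not counted. With split called peaks joined, the medians were 9425 and 18850 bp. Wider regions less often lacked treated wild type: 81.6% of those where the other 3 lists spanned up to 3 kb (76.3 to 86.1), 80.7% at 3 to 5 kb, 69.9% at 5 to 8 kb, 53.1% at 8 to 12 kb and 38.3% over 12 kb (32.3 to 44.6). A wider region offers more bases where an interval can overlap it, and the part of this in the shares was not tested.

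Untreated wild type set the outline of most members. Its intervals covered a median of 91.5% of the region (77.1 to 100), untreated knockout 52.7% (36.8 to 69.8) and treated knockout 31.2% (19.1 to 46.7). In members the median interval was 1250 bp in treated knockout, 1900 bp in untreated knockout and 3850 bp in untreated wild type. Each is above the median of its list (1150, 1650 and 2600 bp). In regions of all 4 lists the medians were longer still, at 1300, 2150 and 5500 bp. A longer interval offers more bases where other lists can overlap it, so the rule favours long intervals. A single untreated wild-type interval was present in 91.5% of members, while treated knockout had a single interval in 71.4% and up to 10. Merging does not require the lists to meet in 1 place. All 3 lists shared bases in 1071 members (75.5%), with a median shared length of 700 bp over all members, and 348 members held the 3 lists without a common base.

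The maximum given with an interval is the authors' value for the highest coverage of the called peak, which may lie outside the interval, on a scale that differs between lists. It is therefore given relative to the median of its list. The median member had 1.12 times the list median in treated knockout (interquartile range 1 to 1.38), 1.2 times in untreated knockout (1 to 1.4) and 1.25 times in untreated wild type (1.08 to 1.42). The regions of all 4 lists had medians of 1.12, 1.4 and 1.33 times in the same order. Of the members, 24.5% lay below the list median in treated knockout, 13.2% in untreated knockout and 13.2% in untreated wild type. High maxima were rare, with 11, 44 and 15 members at 2 times the list median or more, and none was above 10 times, whereas 9 or 10 regions of all 4 lists were above 10 times in each list.

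Within classes of width, members seldom had higher median maxima than regions of all 4 lists. The only higher value was in treated knockout at 3 to 5 kb, and the others were equal or lower. Up to 3 kb, where the span is that of the other 3 lists, the medians for treated knockout, untreated knockout and untreated wild type were 1.12, 1.2 and 1.17 times in 208 members and 1.25, 1.4 and 1.42 times in 47 regions of all 4 lists. At 3 to 5 kb they were 1.12, 1.2 and 1.17 times in 509 members and 1, 1.2 and 1.17 times in 122 regions of all 4 lists. Where the other 3 lists spanned 5 to 8 kb, the medians of 425 members and 183 regions of all 4 lists were the same, at 1.12, 1.2 and 1.25 times. At 8 to 12 kb they differed in untreated knockout alone, at 1.2 times in 180 members and 1.4 times in 159 regions of all 4 lists. Over 12 kb they were 1.25, 1.4 and 1.42 times in 97 members and 1.38, 1.6 and 1.5 times in 156 regions of all 4 lists. A region takes the highest of its intervals, so a region with more intervals has more chances of a high value. Across the 1419 members the maxima of different lists were weakly related, with Spearman's rho of 0.168 between treated and untreated knockout, 0.179 between treated knockout and untreated wild type and 0.277 between untreated knockout and untreated wild type. These describe regions of single lists that share width and neighbourhood.

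**Figure D5:**
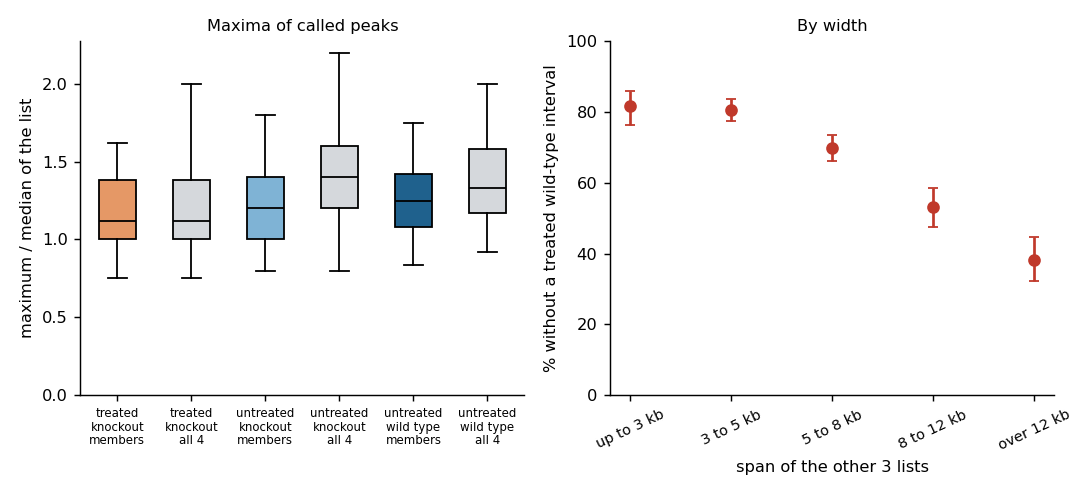
Left: maxima relative to the median of the list, for members and for regions of all 4 lists, in treated knockout, untreated knockout and untreated wild type; boxes show the quartiles and the median, whiskers the 5th and 95th percentiles. Right: percentage of regions without a treated wild-type interval by the span of the other 3 lists, with exact 95% confidence intervals. The medians lie between 1.12 and 1.4, and the percentage is 81.6% up to 3 kb and 38.3% over 12 kb.

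The members with the highest maxima came from the blocks described above. In treated knockout these were neighbours on the short arm of chromosome 1. The region chr1:116033601-116045550 had a maximum of 0.797 in treated knockout, 0.651 in untreated knockout and 0.549 in untreated wild type, or 2.62, 1.8 and 1.17 times the list medians. Its nearest treated wild-type interval was 1143 kb away. The other two, chr1:115859551-115869600 and chr1:117262801-117287200, had 2.5 and 2.25 times the median in treated knockout, 1.2 times each in untreated knockout, and 1.17 and 1.67 times in untreated wild type. These regions were named for their treated knockout maxima, so a lower standing in the other lists follows from the choice.

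In untreated knockout the highest was chr7:68317701-68333050, with 0.94, or 2.6 times the median, beside 0.455 (1.5 times) in treated knockout and 0.667 (1.42 times) in untreated wild type. It was followed by chr7:53640651-53644100 and chr14:75690151-75697600, both at 2.4 times in untreated knockout. The region on chromosome 14 counted as a member through a treated knockout interval of 50 bp, and treated wild type lay 2.5 kb away.

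In untreated wild type the 3 highest members lay within 1 Mb of each other on chromosome 7. The region chr7:55516051-55521700 had 1.29 in untreated wild type (2.75 times the median), against 0.455 in treated knockout (1.5 times) and 0.434 in untreated knockout (1.2 times). The others were chr7:55068351-55077600, at 2.42 times in untreated wild type but with no base common to the 3 lists, and chr7:55712701-55722050, at 2.25 times. The widest member, chr7:55171401-55209500, lay between them and was 38100 bp wide, with 8 treated knockout intervals, 9 of untreated knockout and 3 of untreated wild type. Their maxima were 1.87, 1.4 and 1.92 times the list medians in that order, and the nearest treated wild-type interval was 2.45 kb away. The next widest were chr14:104170551-104208050 (37500 bp, 77 kb from treated wild type) and chr20:58294801-58323800 (29000 bp, 1.15 kb away).

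Treated wild-type signal close to members can also be seen from the called peaks behind the list. The region of the maximum of a treated wild-type called peak overlapped 70 members (4.93%, 3.87 to 6.19), although no interval of the list lay there. The stretch between split pieces of such a peak crossed 17 members. Either was true of 78 members (5.5%, 4.37 to 6.81), and for the other 1341 (94.5%) the list gave neither. Absence from a list means that no intersected peak was listed and is not a measurement of zero signal.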

How the data were processed

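CUT&RUN for TOP2B was used from 8 of 16 samples, and the 8 H2A samples were not analysed here. Each list, per the file names, is an intersection of peaks. The submitters' processing notes name GRCh37, bedtools 2.30, deepTools 3.5.1, SAMtools 1.16, Bowtie2 2.4.2, SEACR, FastQC and Trimmomatic. The sources used here do not state the caller's mode, control or scaling. The deposited score is the summed area of a called peak and the deposited signal is its maximum coverage, both identified from the values.

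Union regions, patterns, distances and exact confidence intervals were computed with Python 3.11.15, pandas 2.3.3 and scipy 1.17.1, and merging and distances were tested on simulated data. Windows and blocks use region midpoints and member edges. The rule for named positions took the 10 windows and 5 series with most members, the 3 highest maxima per list, and the 3 widest, nearest and farthest members. Blocks and flanks were added afterwards. The members and all lists were chosen with earlier results of these data known. Genes, base composition and sequences were not analysed, because the annotation and promoter sequences at hand are of another build. No gene was placed at any position.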

Additional observations from a re-analysis of the deposited data

Results flagged for a closer look

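On chromosome X, which the rule leaves out, 116 regions had intervals of treated knockout, untreated knockout and untreated wild type but none of treated wild type, and 1 region held all 4 lists. That is 99.1% of 117 regions (95.3 to 100), in data outside the comparisons above. The contrast is the same that the rule used for the members. The lists held 21 intervals of treated wild type there, 324 of treated knockout, 351 of untreated knockout and 262 of untreated wild type.

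In 2 of the 10 windows with most members, treated knockout had slightly more intervals than untreated knockout, while treated wild type had fewer than untreated wild type. At 116 to 117 Mb of chromosome 1 treated knockout held 108 intervals against 104 in untreated knockout, and treated wild type held 0 against 87 in untreated wild type. At 117 to 118 Mb treated knockout held 97 against 95 in untreated knockout, and treated wild type 2 against 90 in untreated wild type. The windows were chosen for regions that lack treated wild type, so its low numbers come from the rule. The knockout numbers differ by no more than counting error, so no opposite direction is shown, and the difference between genotypes was not tested.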

How the results depend on the processing

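The number of members ranged from 998 to 1415 over 11 alternatives, within 1.5 times of 1419 in all of them. No paired analysis was possible because each condition has 1 list without replicate columns, and no replicate could be left out. Alternatives for genes and base composition were not run. Other values that moved follow; the cause was not tested. With called peaks as spans, 59.7% of regions lacked treated wild type, 77% of members lay in 5 chromosomes and 16.6% in windows without treated wild type, the distance was 47.6 kb and the widths of members and of regions of all 4 lists were 9425 and 18850 bp. With lists of equal length, treated knockout alone was missing from 176 regions, 85.8% of members lay in 5 chromosomes, the distance was 38.5 kb, the widths were 5800 and 8500 bp, and the ratio of median maxima, members over regions of all 4 lists, was 0.9 in treated knockout (1 in the report) and 0.941 in untreated wild type (0.937). With maxima at or above the list median, 75.7% lacked treated wild type, 87.3% of members lay in 5 chromosomes and 25.3% in windows without treated wild type, the distance was 62.4 kb, the widths were 5850 and 9100 bp, the ratios were 0.909 in treated knockout and 0.75 in untreated knockout (0.857), and treated knockout, untreated knockout and untreated wild type alone were missing from 236, 58 and 24 regions. With treated wild type widened by 5 kb these were 838, 294 and 110, by construction, 57.1% lacked treated wild type, 82.8% of members lay in 5 chromosomes and 15% in windows without treated wild type, the distance was 43.7 kb and regions of all 4 lists were 6875 bp wide; widened by 1 kb, 65.8% lacked it. Joining within 500 bp gave a distance of 35.4 kb and widths of 5650 and 9300 bp. Without chromosome 20, 17.5% lay in windows without treated wild type, the distance was 37.4 kb and the treated knockout ratio 0.9, which was also 0.9 with a 50% overlap, without intervals under 500 bp and with a bin shared by the other 3 lists. The last of these, chosen after seeing the data, gave 8350 bp for regions of all 4 lists. Counting spans and maxima of treated wild-type called peaks, also chosen after seeing the data, gave 64.3% without treated wild type. Depth is unknown, so how far absence reflects fewer reads was not tested.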
